A study of Mus musculus with 6 samples.

Results

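The genes described here are those of arginine use: *Nos2*, *Ass1*, *Asl*, *Slc7a2*, *Odc1* and *Gch1*. They were chosen by name as a carrier of arginine, enzymes that rebuild or oxidize it, and enzymes that use ornithine (*Odc1*) or make a cofactor of nitric oxide synthase (*Gch1*), and the 6 named are part of the 54309 gene identifiers in the table. RNA of whole subcutaneous tumors of MCA205, a mouse fibrosarcoma cell line, was sequenced from 3 control mice and 3 mice given FF-10101. The drug is a covalent inhibitor of the FLT3 kinase, and the study reports long-lasting inhibition of the CSF1R kinase by it as well. All mice were female C57BL/6J, 7 weeks old, and carried the transplanted line in the right flank with their own immune system intact. The control group drank milliQ water, and the treated group drank FF-10101 at 0.1 mg/mL from day 1 to day 8, when the tumors were taken. The comparison asks how tumors that formed under the drug differ from untreated tumors in their RNA.

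Arginine enters macrophages through cationic amino acid carriers and is then shared between competing enzymes. Nitric oxide synthase turns it into nitric oxide and citrulline, with tetrahydrobiopterin as a cofactor, while other enzymes turn it into ornithine and urea. Citrulline can be rebuilt into arginine, and ornithine feeds polyamine and proline synthesis. *Nos2* is the textbook marker of macrophages activated by interferon-γ and microbial products.

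The tumors had 9143806 to 13258258 reads each, and every value below is a normalized count, that is, the reads scaled to each tumor's size factor, unless another scale is named. A floor of 3 reads was 2.29 to 3.38 normalized counts. Fold changes are differences of mean log2(normalized count + 1), which understate the change of low genes, and were tested with limma over 13963 genes with Benjamini-Hochberg adjustment. The p values measure the spread between the 3 tumors of each group. Only 6 of the 13963 genes, 0.043%, passed an adjusted p of 0.05. Control tumor 1 had the lowest limma array weight, 0.139, against 0.406 to 8.08 for the other tumors, and without it 3051 genes passed. Fold changes of the 6 genes and counts over most of the gene lists are therefore also given without it. Fibroblast and fibrosarcoma markers were abundant in each tumor, with summed counts of 124300 to 347977.

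None of the 6 genes passed an adjusted p of 0.05 with limma (0 of 6, against 0.043% of all genes). At an unadjusted p under 0.05, *Nos2* and *Slc7a2* were higher and *Asl* was lower in FF-10101–treated tumors, against 8.77% of all genes higher and 7.49% lower. The control and treated values did not overlap for *Nos2*, higher, and for *Asl*, lower, against 10.9% and 9.37% of all genes. The other 4 genes overlapped. The median log2 fold change was 0.22 over the 6 genes and 0.02 over all genes tested.

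**Figure D1:**
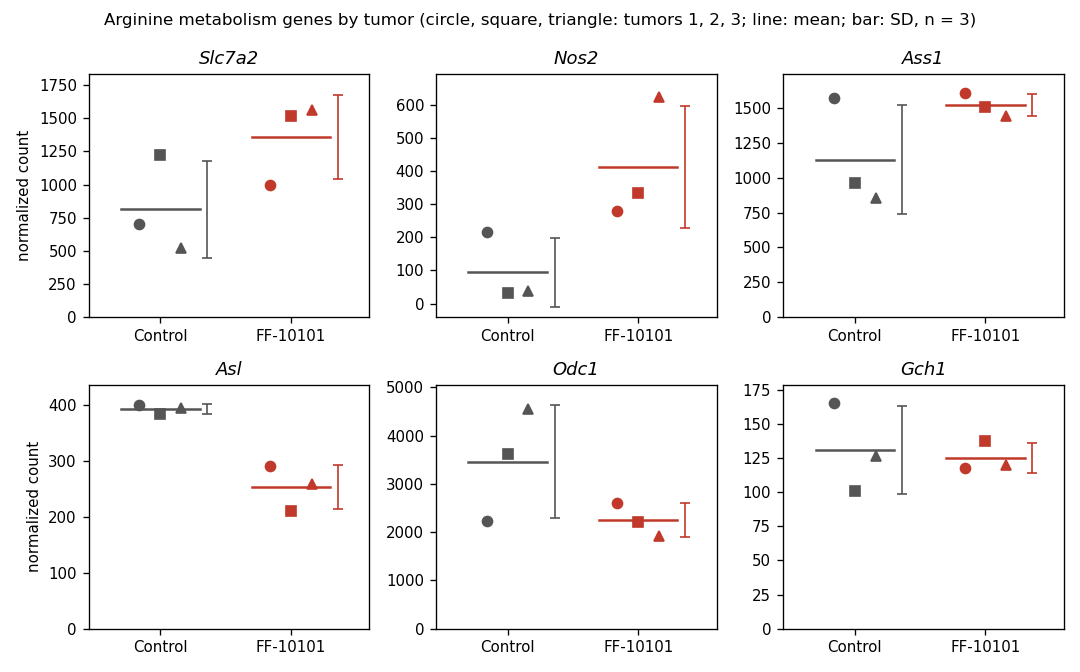
Normalized counts of the 6 arginine genes in each tumor, 1 panel per gene, with points for tumors 1, 2 and 3, lines for the mean and bars for the SD (n = 3). The 3 treated tumors lie above all control tumors for Nos2 and below them for Asl, and the groups overlap for the other 4 genes.

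*Nos2* encodes inducible nitric oxide synthase. Its level was 215, 32.6 and 36.6 in control tumors 1, 2 and 3 and 279, 334 and 623 in FF-10101 tumors 1, 2 and 3. The lowest treated tumor stood above the highest control tumor, and control tumor 1 was the highest of its group. The 95% exact Poisson interval, which covers counting error only, was 186 to 248 in control tumor 1 and 251 to 309 in FF-10101 tumor 1. The mean was 94.7 ± 104 (SD, n = 3) in the control group and 412 ± 185 (SD, n = 3) in the treated group. The log2 fold change was 2.58 (SE 0.69, 95% interval 0.99 to 4.17), with an adjusted p of 0.229 by limma. The exact two-sided permutation test gave p = 0.1, the smallest that 3 against 3 allow. As these are whole tumors, a different number of cells of a type and a different amount of RNA per cell cannot be told apart.

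*Gch1* encodes GTP cyclohydrolase, the first enzyme of tetrahydrobiopterin synthesis, and is often induced together with *Nos2*. It was 165, 101 and 126 in control tumors and 118, 138 and 119.997 in treated tumors. The treated values all lay within the control range. The log2 fold change was -0.04 (95% interval -0.59 to 0.51, adjusted p = 0.946 by limma), so a difference between these bounds is not excluded by the interval.

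The enzymes that rebuild arginine from citrulline had mean changes of opposite sign, and the difference between them was not tested. *Ass1*, argininosuccinate synthase, was 1576, 963 and 853 in control tumors and 1606, 1511 and 1447 in treated tumors, and control tumor 1 lay among the treated tumors. Its log2 fold change was 0.48 (95% interval -0.055 to 1.01, adjusted p = 0.345 by limma). *Asl*, argininosuccinate lyase, was 401, 384 and 395 in control tumors and 290.2, 211 and 259.5 in treated tumors. Each treated tumor was below each control tumor, and the control tumors differed little, with an SD of 8.71 against 40.2. The log2 fold change of *Asl* was -0.64 (95% interval -1.05 to -0.24, adjusted p = 0.229 by limma, exact permutation p = 0.1). *Ass1* shares 43.1% of its 31-base stretches with the predicted gene *Gm5424*, which had 0 reads in all tumors. No reads were assigned to that partner, though reads from the shared stretches cannot show which of these genes they came from.

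*Slc7a2* encodes CAT-2, the inducible arginine carrier. It was 702, 1223 and 518 in control tumors and 996, 1514 and 1563 in treated tumors. Control tumor 2 exceeded FF-10101 tumor 1, so the groups overlapped. The log2 fold change was 0.80 (95% interval 0.055 to 1.55, adjusted p = 0.290 by limma).

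*Odc1* encodes ornithine decarboxylase, which makes putrescine from ornithine. It was 2225, 3610 and 4547 in control tumors and 2613, 2210 and 1923 in treated tumors. Control tumor 1 lay within the treated range, and the other control tumors above it. The log2 fold change was -0.57 (95% interval -1.19 to 0.043, adjusted p = 0.333 by limma). Of its 31-base stretches 31.3% are shared with other genes, and of the leading partners the predicted genes *Gm7993* and *Gm9115* had 0 reads and *Gm17709* had 0 to 3 reads per tumor.

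**Figure D2:**
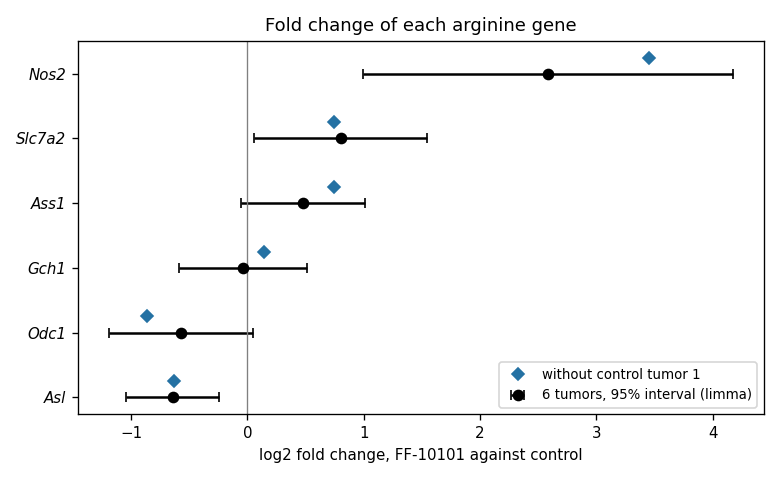
Log2 fold change of each arginine gene (FF-10101 minus control, on log2(normalized count + 1)) with points and 95% interval bars for all 6 tumors, and diamonds for the fit without control tumor 1. Nos2 moved from 2.58 to 3.45 without that tumor, and Gch1 from -0.04 to 0.14.

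Several of these calls changed when control tumor 1 was left out. Without it, 4 of the 6 genes passed an adjusted p of 0.05 with limma, against 12% of all genes called higher and 9.88% called lower in that fit. *Nos2* (log2 fold change 3.45, adjusted p = 0.000892) and *Ass1* (0.75, adjusted p = 0.00812) then rose by limma. *Odc1* (-0.86, adjusted p = 0.0129) and *Asl* (-0.63, adjusted p = 0.0419) then fell by limma. The fold change of *Asl* itself hardly moved, from -0.64 with all tumors. *Slc7a2* and *Gch1* did not pass in that fit. Control tumor 1 also had the highest *Ifng* of its group, 146 against 24.99 and 11.1, and the highest sums of its group for 8 of the 10 marker lists, all but neutrophil and keratinocyte markers. Its endothelial markers summed to 6900 against 2742 and 2222, its T cell markers to 2845 against 1166 and 998, and its fibroblast and fibrosarcoma markers to 303010 against 158289 and 124300. The part of these in the values above was not tested.

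Levels per kb of transcript allow the genes to be set beside each other. In control tumors the mean per kb ran from *Odc1* (1567) through *Ass1* (667), *Asl* (163), *Slc7a2* (103) and *Gch1* (47.2) to *Nos2* (27.6). In treated tumors *Odc1* (1018) and *Ass1* (897) again led, *Slc7a2* (172) and *Nos2* (120.2) lay above *Asl* (105), and *Gch1* (45.1) was lowest. This order is of means and did not hold in each tumor. *Nos2* per kb was 62.7, 9.51 and 10.7 in control tumors, above *Gch1* (59.6) in control tumor 1 alone, and 81.3 against 120.3 for *Asl* in FF-10101 tumor 1.

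Within each tumor, *Asl* as a percent of *Ass1* per kb was 17.9, 28.0 and 32.5 in control tumors and 12.7, 9.80 and 12.6 in treated tumors. The groups did not overlap in this ratio, which is a description with no test. *Slc7a2* relative to *Slc7a1*, the constitutive arginine carrier, overlapped, at 156%, 219% and 118% against 178%, 264% and 245%.

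**Figure D3:**
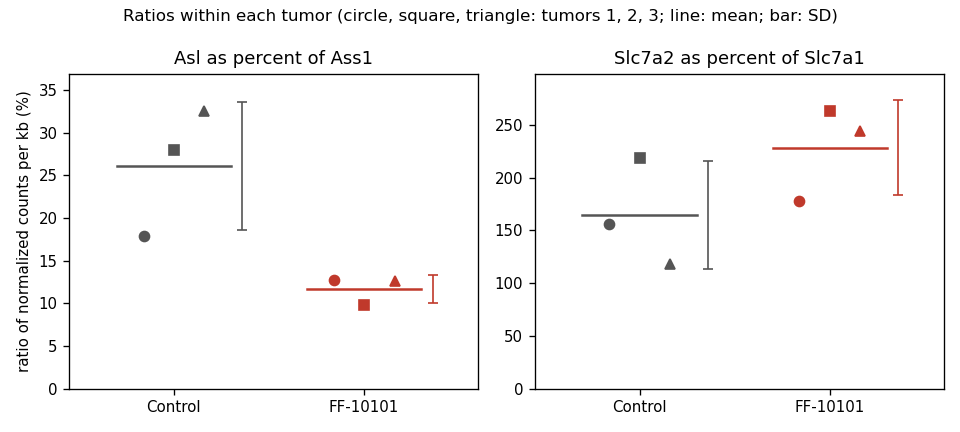
Ratios of normalized counts per kb within each tumor, in percent, with points for tumors 1, 2 and 3, lines for the mean and bars for the SD (n = 3). Asl relative to Ass1 lies lower in each treated tumor, and the ratios of Slc7a2 to Slc7a1 overlap.

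Promoter sequences are shown for *Ass1* and *Odc1*, whose group means differed in opposite directions. RefSeq promoters (build GRCm38.p6, 250 bases before to 50 after the start) matched 3 of the 6 genes, *Ass1* at chr2:31470020-31470319 on the plus strand, *Odc1* at chr12:17544623-17544922 on the plus strand and *Gch1* at chr14:47189364-47189663 on the minus strand. Capitals mark the GC box GGGCGG and the E-box CACGTG, each searched on both strands.
Ass1: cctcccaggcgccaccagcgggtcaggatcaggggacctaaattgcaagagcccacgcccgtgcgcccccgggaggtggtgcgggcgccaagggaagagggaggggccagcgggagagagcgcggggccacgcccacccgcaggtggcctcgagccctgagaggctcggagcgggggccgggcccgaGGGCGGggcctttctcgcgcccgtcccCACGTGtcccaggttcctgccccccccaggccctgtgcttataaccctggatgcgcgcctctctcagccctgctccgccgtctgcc
Odc1: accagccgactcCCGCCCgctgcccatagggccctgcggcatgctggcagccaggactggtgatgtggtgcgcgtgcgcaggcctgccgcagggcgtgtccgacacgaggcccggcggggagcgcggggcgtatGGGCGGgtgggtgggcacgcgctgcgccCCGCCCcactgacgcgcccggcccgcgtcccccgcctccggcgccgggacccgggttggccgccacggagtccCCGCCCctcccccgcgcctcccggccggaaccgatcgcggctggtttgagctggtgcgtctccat
The GC box occurred 1 time in *Ass1*, 4 times in *Odc1* and 2 times in *Gch1*, and in 35.7% of the 32851 promoters of the table. The E-box occurred 1 time in *Ass1*, and in 7.15% of all promoters. These are letter matches and were not tested against the RNA levels.

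The wider pathway was described by 10 lists of metabolic genes, 64 in all, of which 52 passed the minimum mean of 10. With limma 0 of the 52 passed an adjusted p of 0.05, against 0.043% of all genes, while 1 was higher and 11 were lower at an unadjusted p under 0.05, against 8.77% and 7.49%. The groups did not overlap for 3 genes higher and 9 lower, against 10.9% and 9.37%. The mean was higher in 20 and lower in 32. Without control tumor 1, 4 of the 52 passed higher and 11 lower by limma at an adjusted p of 0.05, against 12% and 9.88% of all genes. Those lower included 4 tetrahydrobiopterin genes and 3 genes of polyamine synthesis and its regulation.

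Genes of arginine transport and nitric oxide handling differed in both directions. Of 5 arginine carriers tested, 4 were higher and 1 lower, from *Slc7a7* (log2 fold change -0.34) to *Slc7a6* (0.32), with a median of 0.21. Of 5 genes tested in the list of nitric oxide synthases other than *Nos2* and their regulators, *Ddah1*, which breaks down methylarginine inhibitors of the synthase, was highest (0.91) and *Ddah2* lowest (-0.28). Of 7 tetrahydrobiopterin genes, 6 were lower, with a median of -0.43, from *Gchfr* (-2.01), the feedback regulator of GTP cyclohydrolase, to *Pcbd1* (0.14). Without control tumor 1 that median was -0.84, with 6 again lower. Of 5 genes of the nitric oxide receptor and its targets, *Gucy1a1*, a subunit of soluble guanylate cyclase, was highest (1.53) and *Prkg2* lowest (-0.39).

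Of the mitochondrial urea cycle, *Cps1*, *Otc* and *Nags* had no read in any tumor, and *Slc25a13* and *Slc25a15* differed by -0.84 and 0.02. Of 7 genes of polyamine synthesis and its regulation 5 were lower, from *Oaz1* (-0.98) to *Azin2* (0.13). *Oaz1* is an antizyme that limits ornithine decarboxylase, so the count of lower genes gives no direction for synthesis. Polyamine breakdown and transport ran from *Atp13a2* (-0.60) to *Sat2* (0.46), and hypusination, which uses spermidine, from *Dohh* (-0.67) to *Dhps* (-0.07). Ornithine and proline genes ran from *Pycrl* (-0.93) to *Pycr1* (0.51), and creatine genes from *Gatm* (-0.70) to *Slc6a8* (-0.22).

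**Figure D4:**
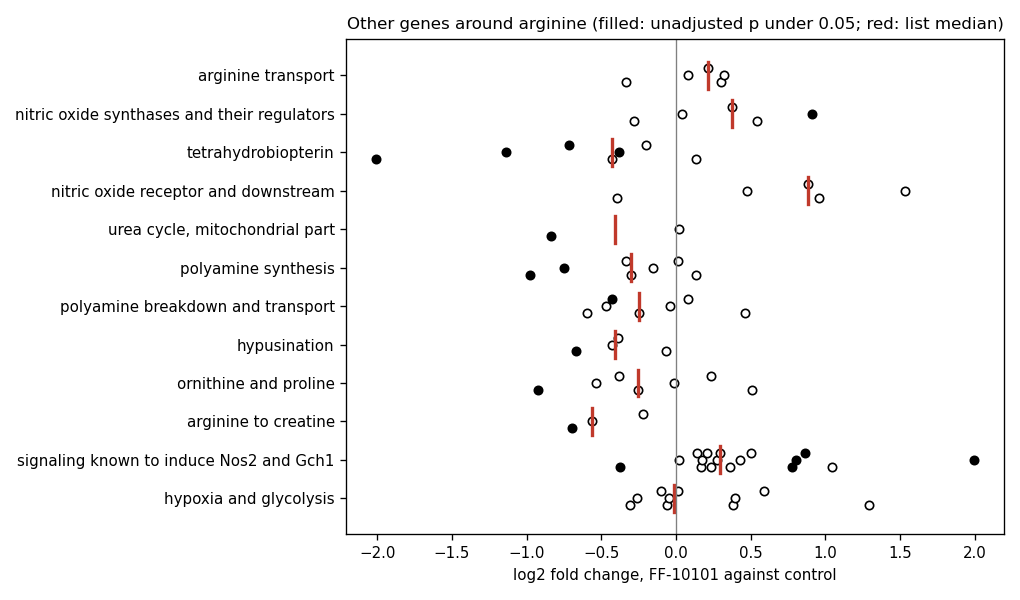
Log2 fold change (FF-10101 minus control) of each tested gene of the pathway lists, 1 row per list, 1 point per gene, filled at an unadjusted p under 0.05 by limma, with a red line at the list's median. Tetrahydrobiopterin genes have a median of -0.43 and the nitric oxide receptor genes 0.88, and no gene passed an adjusted p of 0.05.

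Genes of interferon-γ, TNF, IL-1 and Toll-like receptor signaling, which is known to induce *Nos2* and *Gch1*, were set beside them, the feedback inhibitor *Socs1* included. Of the 17, 16 were higher in mean, and 4 were higher and 1 lower at an unadjusted p under 0.05 by limma, against 8.77% and 7.49% of all genes. Without control tumor 1, 10 passed higher and 1 lower at an adjusted p of 0.05, against 12% and 9.88%. *Ifng*, interferon-γ, had the highest log2 fold change (1.99), at 146, 24.99 and 11.1 in control tumors and 132, 115 and 188 in treated tumors, and *Ifngr2* the lowest (-0.38). Of 10 hypoxia and glycolysis genes 5 were higher and 5 lower, from *Egln3* (-0.31) to *Ndrg1* (1.29), and the groups overlapped for each, against 10.9% of all genes higher and 9.37% lower without overlap. Without control tumor 1, 7 of these were higher and 3 lower in mean, and 1 passed higher by limma.

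Markers of the cells that could carry these transcripts were set beside them, and in the fit of all 6 tumors none of the markers tested passed an adjusted p of 0.05 by limma. Summed macrophage markers were 105453, 67285 and 85327 in control tumors and 35962, 56738 and 55612 in treated tumors, and 5 of the 10 were lower at an unadjusted p under 0.05 by limma, against 7.49% of all genes, from *Lyz2* (-1.05) to *Cd14* (0.35). The groups overlapped for the other 5. Most of the macrophage sum came from *Lyz2*, *C1qa*, *C1qb* and *C1qc*, so it says little of the other markers. *Lyz2* alone was 42373.2, 31641.5 and 48995.6 in control tumors and 12842.1, 24525.3 and 23651.8 in treated tumors. Summed neutrophil markers were 2042, 2290 and 1928 against 3257, 2798 and 3065, with 7 of 8 tested higher in mean, 5 of them at an unadjusted p under 0.05 by limma against 8.77% of all genes, from *Mmp9* (-0.13) to *Mmp8* (2.88), while *Ly6g* and *Camp* were at 0 to 0.764, *Ltf* was at 0 to 10.1 and *Ngp* had no read. Of 8 monocyte markers 7 were higher in mean, 3 at an unadjusted p under 0.05 by limma, with a median log2 fold change of 1.25, from *Ccr2* (-0.30) to *Chil3* (2.52). *Fn1*, which fibroblasts also express, made up 8085 to 15882 of their sum of 12762 to 26441, and the other 7 summed to 10541, 5259 and 4677 in control tumors and 7658, 10332 and 13571 in treated tumors. The sums of the macrophage and of the neutrophil markers did not overlap between groups. The part of these cells in the *Nos2* and *Asl* values was not tested. Without control tumor 1, 2 macrophage markers passed lower, and 5 monocyte and 6 neutrophil markers passed higher, at an adjusted p of 0.05 by limma, against 9.88% of all genes lower and 12% higher. In that fit 5 macrophage markers were higher and 5 lower in mean, with a median log2 fold change of -0.12 against -0.45 with all tumors.

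Endothelial markers were all higher in mean, 5 of 8 at an unadjusted p under 0.05 by limma, against 8.77% of all genes, from *Egfl7* (0.49) to *Kdr* (1.20), and all 8 passed an adjusted p of 0.05 without control tumor 1, against 12% of all genes higher. Of 10 fibroblast and fibrosarcoma markers 9 were higher in mean, 4 at an unadjusted p under 0.05, and 3 had groups that did not overlap, against 10.9% of all genes, while 5 passed higher without control tumor 1, against 12%. They ran from *Vim* (-0.16) to *Col3a1* (1.01). All 8 T cell markers were higher in mean, from *Lck* (0.25) to *Cd8a* (1.09), with a median log2 fold change of 0.39, or 0.90 without control tumor 1, where 2 passed higher. Of 8 conventional dendritic cell markers 2 were higher and 6 lower in mean, with a median log2 fold change of -0.28, from *Batf3* (-0.68) to *Zbtb46* (0.74). Without control tumor 1, 4 were higher and 4 lower, with a median of -0.0076, and 2 passed higher, against 12% of all genes. Of neighboring tissue, keratinocyte markers summed to 52.9, 43.5 and 214 in control tumors and 1081, 54.3 and 33.8 in treated tumors, so that FF-10101 tumor 1 stood apart. They ran from *Krt10* (-0.75) to *Trp63* (1.72), skeletal muscle markers from *Ckm* (-0.73) to *Ttn* (1.08) and adipocyte markers from *Cfd* (-0.12) to *Lipe* (0.66). Muscle markers summed to 12720 in FF-10101 tumor 2 and 3362 to 7657 in the other tumors, and adipocyte markers to 1836 in FF-10101 tumor 3 and 449 to 1027 in the other tumors. Without control tumor 1, 1 adipocyte marker passed higher and 0 keratinocyte and muscle markers passed by limma.

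**Figure D5:**
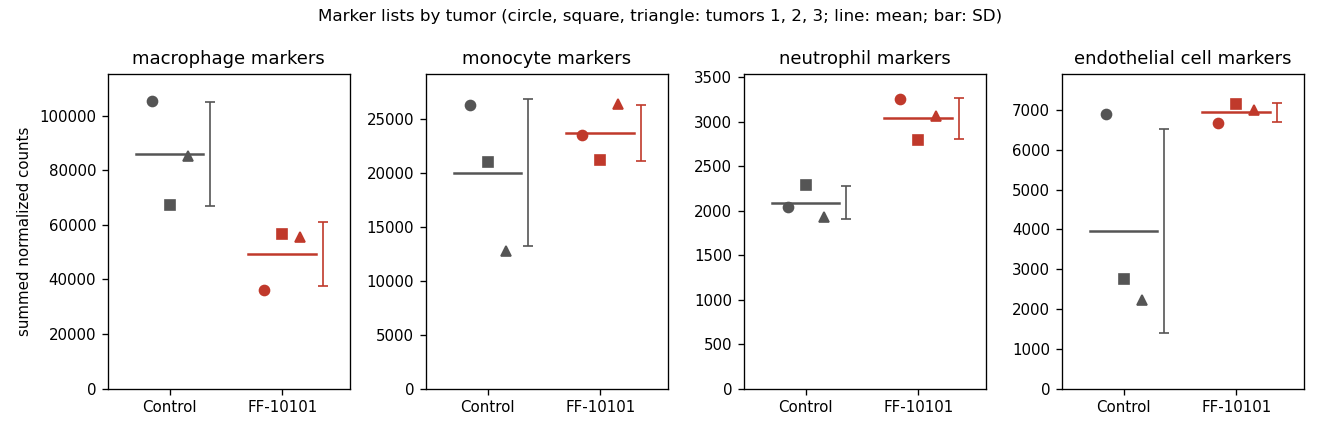
Summed normalized counts of macrophage, monocyte, neutrophil and endothelial markers in each tumor, with points for tumors 1, 2 and 3, lines for the mean and bars for the SD (n = 3). Macrophage sums, of which Lyz2 is a large part, lie lower and neutrophil sums higher in each treated tumor. The endothelial sums and the monocyte sums, of which Fn1 is a large part, overlap.

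The genes whose levels were most like *Nos2* over the 6 tumors, by Pearson's r of log2(normalized count + 1), were *Casp4* (0.999), *Dcn* (0.999) and *Slfn8* (0.998). They are the highest of 13963 genes over 6 tumors that share libraries and group, and are a description only.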

How the data were processed

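Bulk RNA sequencing of 3 control and 3 FF-10101–treated MCA205 tumors was analysed, grouped by the sample labels. Per the submitters' processing notes and the study's methods, the authors used fastp version 0.19.5, Salmon version 1.5.1 on GENCODE vM27 and DESeq2 version 1.22.1. The values were deposited on a log2 scale without pooling of tumors. They behave like the output of the variance-stabilizing step in DESeq2, which the sources used here do not name. Its inverse gave whole reads for 100% of 325854 values (tolerance 0.001). Salmon divides reads between similar transcripts by estimation, so genes with near copies are uncertain.

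The design had been planned for normalized counts, so these were recovered first. Log2(normalized count + 1) was fitted with limma version 3.58.1 (R version 4.3.3, eBayes with a trend, group as the sole term) over 13963 genes with a mean of at least 10, and checked on simulated data. Identifiers were named from GENCODE vM21 (51484 matched), whose transcripts also gave lengths. Named besides the 6 genes were the highest and lowest fold change of each list, the genes at 0 or under the minimum that define a cell type or pathway, genes sharing sequence, and the 3 genes most like *Nos2*. *Slc7a1*, *Socs1*, *Fn1*, *C1qa*, *C1qb* and *C1qc* were named outside this rule, after their values were seen. Some genes of the pathway are not reported here. The genes, lists and alternatives were chosen with earlier results of these data known. Alternatives were pseudocounts of 0.5 and 10, no minimum and a minimum of 50, scaling to the 75th percentile, array weights, a replicate block, the deposited values, limma-voom and each tumor left out.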

Additional observations from a re-analysis of the deposited data

How the results depend on the processing

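The limits are 3 tumors per group, whole tissue, and reads that near copies may share. The count of genes past an adjusted p of 0.05, 6, became 17 with no minimum, 3 with a mean of at least 50, 8365 with array weights and 1 with a replicate block, and ran from 1 to 3051 when each tumor was left out, where the 3051 are without control tumor 1. Of the 6 arginine genes 0 passed, 5 with array weights and 0 to 4 when each tumor was left out. Of the 79 pathway and signaling genes tested 0 passed, 58 with array weights and 0 to 27 when each tumor was left out. These counts stand against 8365 of all 13963 genes with array weights. The 4 and the 27 are without control tumor 1, where 3051 of all 13963 genes passed. Array weights, which gave control tumor 1 0.139 and FF-10101 tumor 2 8.08, moved *Nos2* to 3.32 (log2 fold change, adjusted p = 6.58e-06 by limma). The deposited log2 values gave the lowest *Nos2* value, 1.98 (adjusted p = 0.219 by limma). When each tumor was left out, *Nos2* ran from 2.11 to 3.45, the arginine genes that were higher without overlap numbered 1 to 2, and those that were lower numbered 1 to 2, against 12.7% to 28.4% and 11.1% to 25.7% of all genes in those comparisons. *Gch1* was 0.016 with 75th percentile scaling, 0.37 with array weights, and -0.21 to 0.14 when each tumor was left out. The cause of these shifts was not tested. Of 90 alternative fold changes of the 6 genes, 78 kept direction and side of the threshold, 9 newly passed it and 4, all of *Gch1*, changed sign, and 1 did both (*Gch1* with array weights, adjusted p = 0.0186 by limma). Chosen after seeing the data were the list counts without control tumor 1 and the monocyte sum without *Fn1*. Deviations of same-numbered tumors from their group means had correlations of -0.288, -0.0397 and -0.277. With 3 tumors per group the deviations cancel out within a group, so these correlations cannot show whether the numbers pair tumors. With the replicate block *Nos2* stayed at 2.58 (adjusted p = 0.501 by limma), and 0 of the 6 genes passed.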
